A study of Mus musculus with 4 samples.

Results

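The enzymes that make bile acids from cholesterol and join them to taurine were followed in livers without Baf60a. They are the products of 10 genes of the 18193 measured, namely Cyp7a1, Cyp27a1, Cyp7b1, Hsd3b7, Akr1d1, Cyp8b1, Amacr, Slc27a5, Baat and Cyp2c70, and every probe set that the platform annotation ties to these symbols was taken, 16 of the 45037 probe sets for genes on the array. A probe set is a group of short probes that report 1 transcript together. Baf60a LKO mice carry a liver-specific knockout of Baf60a (gene symbol Smarcd1), whose product belongs to the SWI/SNF complexes that move nucleosomes, and WT mice are wild type. Both groups were of C57BL/6 background, received a high-fat diet for 10 weeks from 6 weeks of age, and had their livers taken after a night without food. Each group has 2 Affymetrix arrays of the mouse genome, and each array holds RNA pooled from livers, so a replicate is a pool. The sex of the mice, the number of mice in a pool and the promoter that drives the deletion are not given in the sources used here. Whole liver was measured, so fewer cells of a type and less RNA per cell cannot be told apart.

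Bile acids are detergents made by hepatocytes from cholesterol, and their synthesis is the main route by which the body breaks cholesterol down. In the classical pathway CYP7A1 hydroxylates the sterol ring first, and in the alternative pathway CYP27A1 oxidises the side chain first and CYP7B1 then hydroxylates the ring. Shared enzymes remodel the ring and shorten the side chain, CYP8B1 sets the share of cholic acid, CYP2C70 turns the other product into muricholic acids in mice, and SLC27A5 and BAAT attach an amino acid, mostly taurine in this species.

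Array medians lay between 4.19 and 4.27 on the log2 scale. WT replicate 1 stood apart from the other 3 arrays. Over probe sets it correlated with them at 0.987 to 0.991, against 0.993 to 0.996 among the other pairs of arrays. Its lower quartile was 3.09 against 2.93 to 2.95 on the others, and its upper quartile was 6.26 against 6.44 to 6.47. Smarcd1 itself had 5.34 and 5.30 in Baf60a LKO livers and 5.62 and 5.88 in WT livers, a difference of -0.43 ± 0.14 that did not pass (limma, adjusted p = 0.410). The labels do not say which exons were removed, so this value is no check of the genotype. The 6 hepatocyte markers (Alb, Ttr, Apoa1, Apoa2, Cps1 and Serpinc1) summed to 81.1 and 81.3 in Baf60a LKO and to 81.0 and 81.2 in WT on the log2 scale. The 6 cholangiocyte markers (Krt19, Krt7, Epcam, Sox9, Cldn7 and Pkhd1) summed to 28.4 and 30.98 in Baf60a LKO and to 24.3 and 25.8 in WT. All 6 were higher in both Baf60a LKO arrays than in both WT arrays, and none passed (limma, 4 at an unadjusted p under 0.05). Of all genes 22.8% were higher without overlap and 10.2% had such a p. Their part in the results below was not tested. The 2 measured adipocyte markers, Adipoq and Lep, were not above background on any array.

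One enzyme gene of the 10, Cyp7b1, fell in Baf60a LKO livers, none rose, and 9 did not pass. The threshold was a limma p below 0.05 after Benjamini-Hochberg adjustment over 18193 genes, each read by its brightest probe set, and 0.484% of all genes passed it, 0.247% as lower. Of the 10 differences (Baf60a LKO minus WT) 9 were below 0, where 49.9% of all genes were. In 7 both Baf60a LKO arrays lay below both WT arrays, as in 19.6% of all genes, and in 1, Amacr, both lay above, as in 22.8% (42.4% of all genes in either direction). At an unadjusted p under 0.05 there were 3 of the 10 (Cyp7b1, Cyp8b1 and Baat, each lower), where 10.2% of all genes reached it. The median of the 10 differences was -0.29, and that of all genes was 0.00. The median of the 10 was -0.19 without Baf60a LKO replicate 1, -0.43 without Baf60a LKO replicate 2 and -0.20 with averaged probe sets. The 10 genes take part in 1 pathway and were read from the same pools, so they are not independent of each other.

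**Figure D1:**
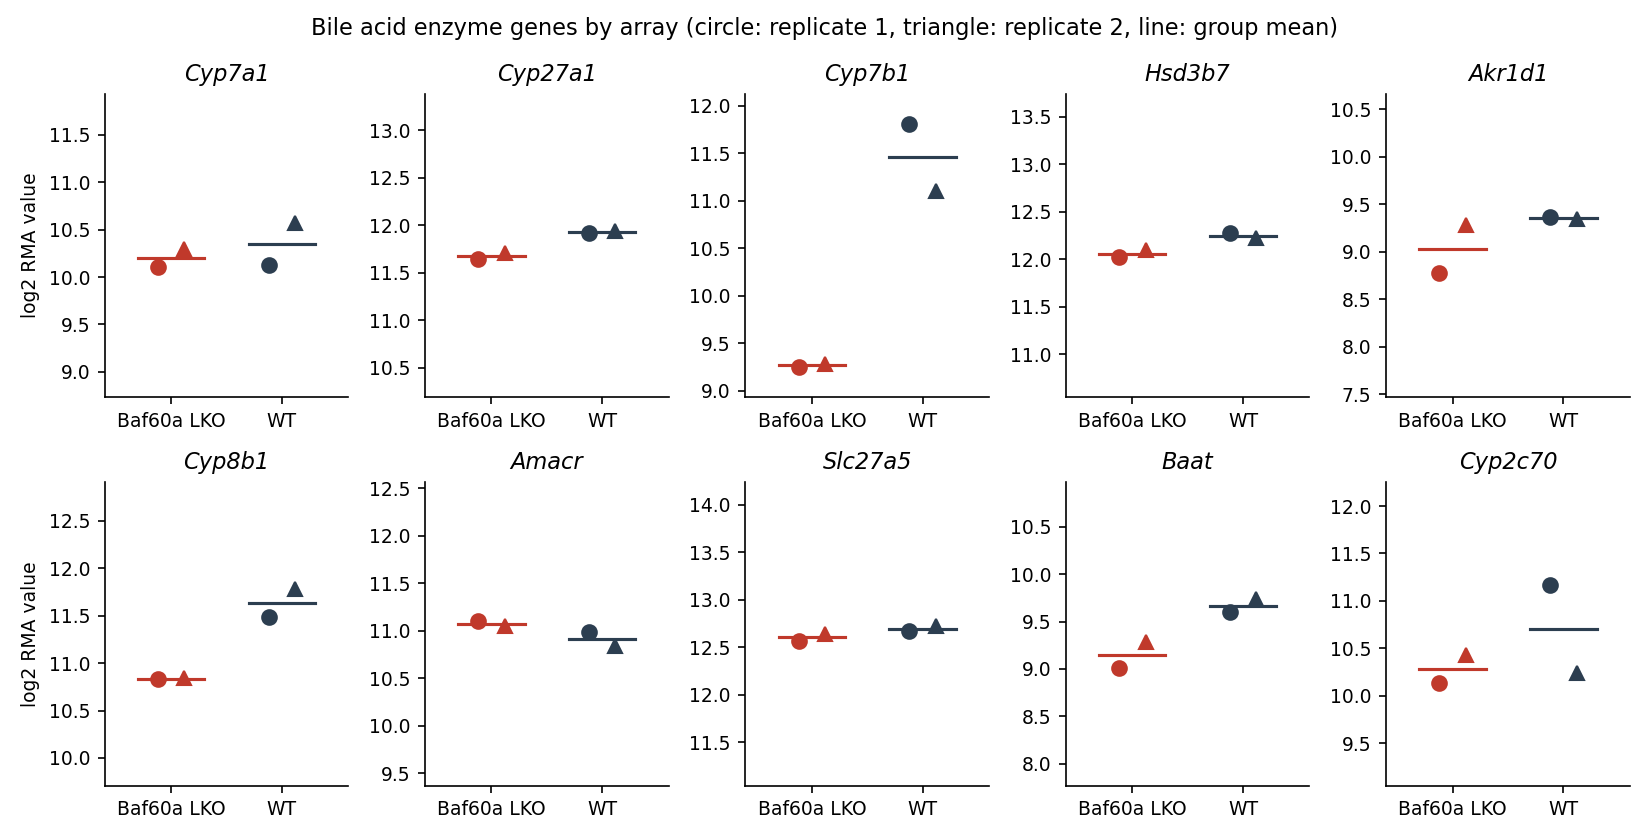
Log2 RMA value (vertical axis, each panel spanning the same range of log2 units) of the 10 genes on each Baf60a LKO array (red) and each WT array (dark), with group means as lines. Cyp7b1 shows the widest gap, with Baf60a LKO at 9.25 and 9.28 and WT at 11.81 and 11.10, while the arrays of Cyp7a1 and Cyp2c70 overlap.

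Of the alternative pathway's hydroxylases, Cyp7b1 fell 4.57-fold and Cyp27a1 did not pass. Cyp7b1, the oxysterol hydroxylase that works on the side-chain-oxidised sterols and is known as a male-biased gene in mouse liver, had values of 9.25 and 9.28 in Baf60a LKO livers and 11.81 and 11.10 in WT livers. The groups did not overlap, and the spread lay in WT: the mean was 9.27 ± 0.03 in Baf60a LKO and 11.46 ± 0.50 in WT (SD, n = 2 each). The log2 difference was -2.19 ± 0.24 (limma, adjusted p = 0.0385, with a 95% interval for this gene alone of -2.79 to -1.59). It ranked 27 of 18193 genes, counted from the lowest difference up. The difference was -1.84 without WT replicate 1 and -2.55 without WT replicate 2. No array could be left out with the call kept, since adjusted p was then 0.0816 to 0.400, and with the replicate number as a block it was 0.119.

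A further probe set told the same of Cyp7b1, and the remaining one lay at background. The second bright probe set read 9.29 and 9.37 in Baf60a LKO and 11.66 and 11.12 in WT, a difference of -2.06 ± 0.20. When all 45037 probe sets were tested side by side, of which 0.187% passed, this one passed (limma, adjusted p = 0.0389) and the brightest one did not (adjusted p = 0.0573). The remaining one read 2.25 and 2.03 in Baf60a LKO and 2.54 and 2.13 in WT, which is not above the 95th percentile of bacterial control probe sets on any array (2.63 to 2.86). Averaging it in gave a difference of -1.48, still past the threshold (adjusted p = 0.0439).

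Cyp27a1, the mitochondrial enzyme that opens the alternative pathway and also oxidises side chains in the classical one, had 11.64 and 11.70 in Baf60a LKO livers and 11.92 and 11.93 in WT livers. Its groups did not overlap, but the difference was small, -0.26 ± 0.11 (limma, adjusted p = 0.519), and its 95% interval ran from -0.54 to 0.03. Its second probe set was not above background on any array.

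Cyp7a1, whose product makes the first and slowest step of the classical pathway, showed no separation of the genotypes. Its brighter probe set read 10.10 and 10.30 in Baf60a LKO livers and 10.12 and 10.56 in WT livers. Its dimmer one read 7.47 and 7.67 in Baf60a LKO and 7.58 and 7.81 in WT. On both, the higher Baf60a LKO array lay between the WT arrays. The differences were -0.14 ± 0.18 (limma, adjusted p = 0.800) and, in the fit over probe sets, -0.13 ± 0.15 (adjusted p = 0.823). Without WT replicate 2 the brighter probe set gave 0.08 and without WT replicate 1 it gave -0.36. The 95% interval of -0.60 to 0.31 leaves room for modest differences either way.

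Among the ring-modifying enzymes none passed, and Cyp8b1 lay furthest below WT. Cyp8b1, the sterol hydroxylase that commits an intermediate to cholic acid, had 10.83 and 10.84 in Baf60a LKO livers and 11.48 and 11.78 in WT livers. The Baf60a LKO arrays were nearly equal and both lay below WT. The difference was -0.80 ± 0.14, or 1.74-fold lower in Baf60a LKO, with a 95% interval of -1.15 to -0.44 and an adjusted p of 0.153 (limma). It lay between -0.95 and -0.65 when 1 array was left out, and 0.742% of all genes lay at or below it. A variance prior that follows expression level (trended and robust eBayes) placed it past the threshold, at adjusted p = 0.0178, and this was the 1 of 12 other settings that did.

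Hsd3b7, the dehydrogenase that acts on the ring after the first hydroxylation, had 12.02 and 12.09 in Baf60a LKO livers and 12.27 and 12.22 in WT livers, a difference of -0.19 ± 0.12 (limma, adjusted p = 0.596). Akr1d1, the reductase that bends the ring system into the bile acid shape, had 8.77 and 9.28 in Baf60a LKO and 9.36 and 9.35 in WT, a difference of -0.33 ± 0.19 (limma, adjusted p = 0.584). That value rests on Baf60a LKO replicate 1: without it the difference was -0.08, and without Baf60a LKO replicate 2 it was -0.58. The other probe set of Akr1d1 read 7.96 and 8.54 in Baf60a LKO and 8.18 and 8.46 in WT, which overlap (-0.07 ± 0.22).

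Amacr, the racemase that readies the side chain for shortening in peroxisomes, was the 1 gene of the 10 with a difference above 0. It had 11.10 and 11.05 in Baf60a LKO livers and 10.99 and 10.84 in WT livers. The groups did not overlap, and the difference of 0.16 ± 0.12 did not pass (limma, adjusted p = 0.673). It was 0.082 without WT replicate 2 and 0.24 without WT replicate 1.

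The conjugation enzymes did not pass, and Baat lay lower on both of its probe sets. Baat, which transfers taurine or glycine to the activated bile acid, had 9.01 and 9.28 in Baf60a LKO livers and 9.60 and 9.73 in WT livers on its brighter probe set. On the dimmer one it had 5.39 and 5.36 in Baf60a LKO and 5.96 in both WT arrays. The groups were apart on each, with differences of -0.52 ± 0.14 (limma over genes, adjusted p = 0.342) and -0.59 ± 0.12 (limma over probe sets, adjusted p = 0.315). Both probe sets read the same pools and are not replicates of each other. Slc27a5, the ligase that activates bile acids with coenzyme A before BAAT acts, had 12.56 and 12.64 in Baf60a LKO livers and 12.67 and 12.72 in WT livers. Its difference was -0.09 ± 0.12 (limma, adjusted p = 0.797, 95% interval -0.38 to 0.20), and -0.050 without Baf60a LKO replicate 1.

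Cyp2c70, which makes muricholic acids in the mouse, varied more between WT pools than between genotypes. It had 10.14 and 10.43 in Baf60a LKO livers and 11.17 and 10.24 in WT livers, so WT replicate 2 lay between the Baf60a LKO arrays. The difference of -0.42 ± 0.31 did not pass (limma, adjusted p = 0.665). It was 0.04 without WT replicate 1 and -0.88 without WT replicate 2. Cyp2c70 belongs to a large family of similar genes, and whether its probes also bind relatives was not tested.

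Cyp8b1 and Cyp2c70 stand at the fork between cholic and muricholic acids, and the bases before their starts are shown because both hold the same short element at nearly the same place. RefSeq promoters of build GRCm38.p6 were found for 5 of the 10 genes (Cyp27a1, Hsd3b7, Akr1d1, Cyp8b1 and Cyp2c70) and not for Cyp7a1, Cyp7b1, Amacr, Slc27a5 or Baat. The 250 bases before the annotated start were searched on both strands for AAAGTCC (a core of sites bound by the hepatocyte factor HNF4), AGGTCA (a nuclear receptor half-site) and TATAAA (the TATA box), which do not overlap each other in these promoters. The Cyp8b1 promoter lies on the minus strand at chr9:121916306-121916555 and that of Cyp2c70 on the minus strand at chr19:40187287-40187536, and capitals mark the matches.
Cyp8b1: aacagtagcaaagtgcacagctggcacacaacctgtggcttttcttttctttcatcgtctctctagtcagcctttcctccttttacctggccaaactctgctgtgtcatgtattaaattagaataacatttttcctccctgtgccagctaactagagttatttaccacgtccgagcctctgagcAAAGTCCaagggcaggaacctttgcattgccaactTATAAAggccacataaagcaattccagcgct
Cyp2c70: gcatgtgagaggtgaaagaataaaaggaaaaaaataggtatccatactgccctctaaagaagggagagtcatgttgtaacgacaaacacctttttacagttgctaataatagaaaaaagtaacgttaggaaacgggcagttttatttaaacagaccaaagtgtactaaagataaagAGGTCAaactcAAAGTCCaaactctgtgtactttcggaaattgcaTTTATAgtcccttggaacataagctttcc
AAAGTCC lay 66 to 60 bases before the start of Cyp8b1 and 63 to 57 bases before that of Cyp2c70, and it was found in 3.58% of 32851 promoters of the same length. TATAAA lay 31 to 26 bases before the start of Cyp8b1 and, on the opposite strand, 29 to 24 bases before that of Cyp2c70, and was in 12.4% of promoters. AGGTCA was in the Cyp2c70 promoter, 74 to 69 bases before the start, and in 14.0% of promoters. It also occurred 2 times in the Akr1d1 promoter, on the opposite strand, and the promoters of Cyp27a1 and Hsd3b7 held none of the 3 motifs. Each of the 3 motifs was in 2 of the 5 promoters. Cyp8b1 and Cyp2c70 were picked for their shared match, so the shares over all promoters do not gauge how unusual the pair is. A match describes the letters and says nothing of binding.

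**Figure D2:**
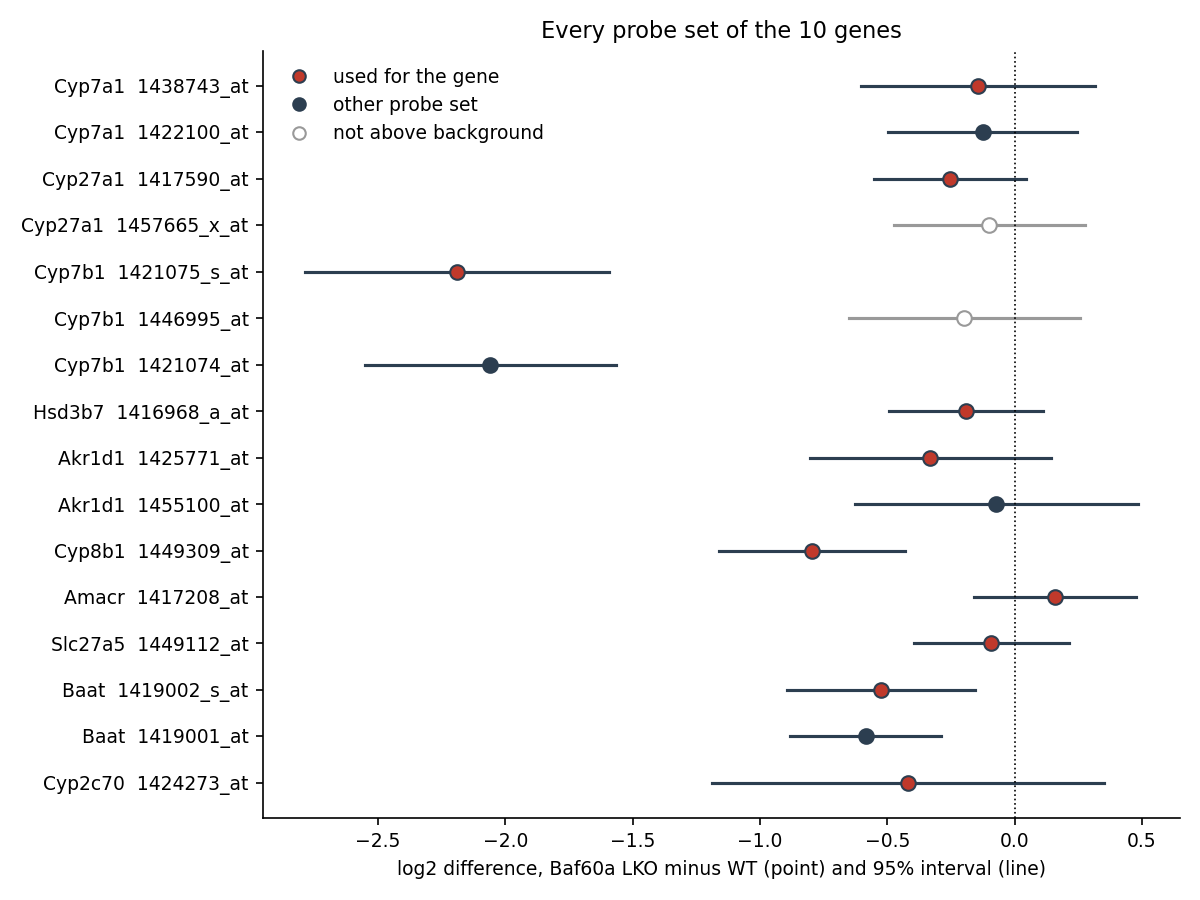
Log2 difference between Baf60a LKO and WT (horizontal axis, points) with its 95% interval (lines, each for 1 probe set alone) for the 16 probe sets, from the fit over probe sets. The bright Cyp7b1 probe sets sit at -2.19 and -2.06, those of Baat at -0.52 and -0.59, and the 2 open points were not above background.

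Over the 16 probe sets, 15 differences were below 0, as were 23247 of all 45037. In 9 both Baf60a LKO arrays lay below both WT arrays, where 19.4% of all probe sets did. The 15 include the 2 probe sets not above background, and probe sets of the same gene are not independent of each other. The plot of every probe set shows 4 genes with more than 1 probe set above background. The probe sets of Cyp7a1, those of Baat and the bright ones of Cyp7b1 differed from their partners by less than 1 standard error. Those of Akr1d1 gave unlike values, -0.33 with the groups apart and -0.07 with the groups overlapping.

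The branches were then set against each other within each array, as the log2 value of 1 gene minus that of another, for 6 pairs. The size of such a gap has no meaning by itself, because probe sets bind differently, but its change with genotype compares the pathway's steps. With 2 arrays against 2, the smallest p of an exact 2-sided permutation test is 0.333, so no pair could pass it. The 95% intervals of a linear model, with 2 residual degrees of freedom and no adjustment for the 6 pairs, lay below 0 for Cyp7b1 relative to Cyp27a1 (-3.49 to -0.38) and for Cyp8b1 relative to Cyp7a1 (-1.17 to -0.14) and held 0 for the other 4.

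Cyp7b1 stood lower in Baf60a LKO livers relative to both Cyp7a1 and Cyp27a1, with no test that could pass. Relative to Cyp7a1 it stood at -0.85 and -1.01 in Baf60a LKO livers and at 1.69 and 0.54 in WT livers, a change of -2.05 ± 0.58. Relative to Cyp27a1, its partner in the alternative pathway, it stood at -2.39 and -2.42 in Baf60a LKO and at -0.11 and -0.83 in WT, a change of -1.94 ± 0.36. The groups were apart in both pairs (exact permutation p = 0.333 each, 0.5 after adjustment over the 6 pairs). Without WT replicate 1 the change was -1.47 relative to Cyp7a1 and -1.57 relative to Cyp27a1. The mean of all probe sets gave -1.35 and -1.30.

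Cyp8b1 relative to Cyp7a1 gave 0.73 and 0.54 in Baf60a LKO and 1.36 and 1.22 in WT, a change of -0.65 ± 0.12 with both groups tight and apart (exact permutation p = 0.333, adjusted 0.5). For Baat relative to Cyp7a1 the values were -1.10 and -1.02 in Baf60a LKO and -0.52 and -0.83 in WT, a change of -0.38 ± 0.16 (exact permutation p = 0.333, adjusted 0.5), which was -0.23 without WT replicate 1 and -0.54 without WT replicate 2. The remaining pairs overlapped. Slc27a5 relative to Cyp7a1 changed by 0.05 ± 0.20, with values of 2.46 and 2.35 in Baf60a LKO and 2.55 and 2.16 in WT (exact permutation p = 1). The sign of that change turned with the arrays used, at 0.25 without WT replicate 1 and -0.14 without WT replicate 2. The fork between cholate and muricholate, Cyp8b1 relative to Cyp2c70, stood at 0.70 and 0.40 in Baf60a LKO and at 0.31 and 1.54 in WT. Its change of -0.38 ± 0.63 was smaller than the gap between the WT pools (exact permutation p = 1), and it was -0.99 without WT replicate 1 and 0.24 without WT replicate 2.

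**Figure D3:**
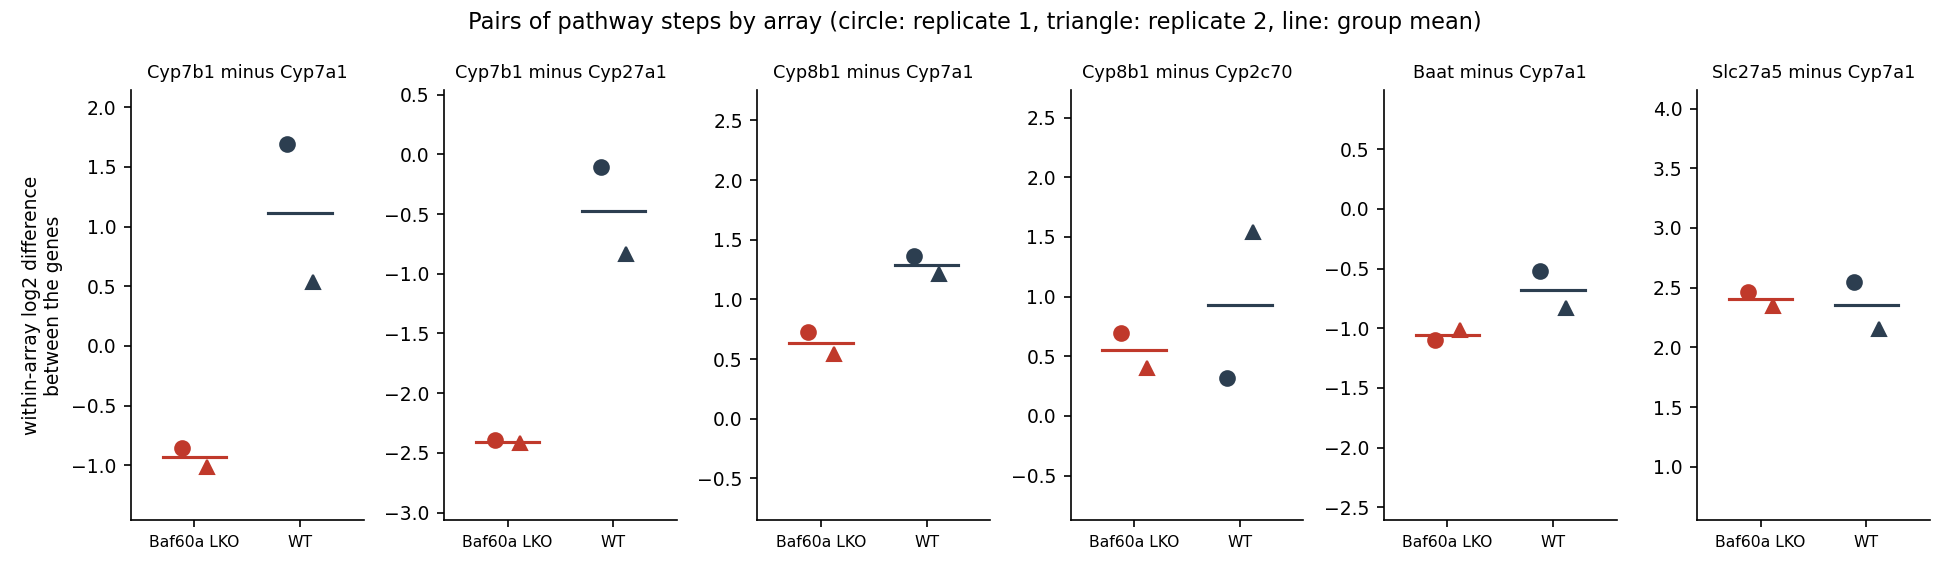
Within-array log2 difference between 2 genes (vertical axis, equal span in each panel) on each Baf60a LKO array (red) and each WT array (dark), with group means as lines. Cyp7b1 relative to Cyp7a1 lies at -0.85 and -1.01 in Baf60a LKO and at 1.69 and 0.54 in WT, and Cyp8b1 relative to Cyp2c70 overlaps.

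By branch, the mean log2 difference was -1.22 for the alternative hydroxylases (Cyp27a1 and Cyp7b1), which Cyp7b1 carried, and -0.44 for ring modification (Hsd3b7, Akr1d1 and Cyp8b1). It was -0.31 for conjugation (Slc27a5 and Baat). The branches with 1 gene stood at -0.42 for muricholate formation, -0.14 for classical entry and 0.16 for the side chain. These means hold 1 to 3 genes and describe the branches without a test.

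Other genes of bile acid synthesis gave no call. Of 12 listed, 10 were measured and none passed (limma, 0.484% of all genes called). At an unadjusted p under 0.05 (limma) there was 1, where 10.2% of all genes reached it. Of these 10, 6 were below 0 and 4 above, and the median was -0.02. The number above 0 was 5 after cyclic loess, 6 with array medians subtracted, 2 without WT replicate 1 and 3 with averaged probe sets. Cyp46a1, the cholesterol hydroxylase best known from neurons, had 4.82 and 4.85 in Baf60a LKO livers and 5.55 and 6.01 in WT livers, a difference of -0.95 ± 0.18 (limma, adjusted p = 0.163). Cyp39a1, a further oxysterol hydroxylase, lay apart by a narrow margin, with 6.16 and 6.47 in Baf60a LKO against 6.49 and 6.82 in WT (-0.34 ± 0.18, and -0.51 to -0.17 when 1 array was left out). The peroxisomal oxidase Acox2, which starts side-chain shortening, had 10.65 and 10.64 in Baf60a LKO and 10.47 and 10.32 in WT (0.25 ± 0.12), and the thioesterase Acot8 differed by 0.22 ± 0.12.

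The supply of taurine, which BAAT attaches, held 1 gene of 4 that rose, where 0.236% of all genes were called higher. Csad, the decarboxylase that leads to taurine, had 11.66 and 11.48 in Baf60a LKO livers and 9.48 and 9.74 in WT livers, groups well apart. It rose 3.89-fold (log2 difference 1.96 ± 0.15, limma, adjusted p = 0.0153, and 0.108 to 0.215 when 1 array was left out and 0.0753 with the replicate block). The other 3 of the 4 listed did not pass. Cdo1, the cysteine dioxygenase ahead of CSAD, differed by -0.19 ± 0.11, the taurine transporter Slc6a6 by 0.17 ± 0.13 (0.099 without WT replicate 1 and 0.03 with averaged probe sets) and Ado, which oxidises cysteamine, by 0.24 ± 0.24 (-0.11 without WT replicate 1).

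None of 12 regulators of these enzymes passed (limma). At an unadjusted limma p under 0.05 there were 3 of the 12, where 10.2% of all genes reached it. These were Fgfr4 and Klb, both higher, and the deleted gene Smarcd1, lower. Of the 12, 10 lay above 0 and 2 below, Hnf4a and the deleted gene Smarcd1, where 49.9% of all genes lay below 0. The median of the 12 was 0.20, and that of all genes was 0.00. The 10 above 0 were all among the brighter 50% of genes, whose median was itself 0.08. The number above 0 was 8 after a second quantile normalization and 7 after cyclic loess. The median was 0.12 after cyclic loess, 0.092 without WT replicate 1 and 0.074 with averaged probe sets. Fgfr4, the receptor through which intestinal FGF15 represses Cyp7a1, had 7.74 and 7.67 in Baf60a LKO livers and 6.97 and 7.29 in WT livers (0.57 ± 0.15, adjusted p = 0.316), but 0.08 when its probe sets were averaged. Its partner Klb had 8.81 and 8.77 in Baf60a LKO and 8.41 and 8.51 in WT (0.32 ± 0.12, and 0.07 with averaged probe sets). Prox1, a repressor of Cyp7a1, differed by 0.38 ± 0.20 with groups just apart, and gave 0.12 without WT replicate 1 and 0.64 without WT replicate 2.

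**Figure D4:**
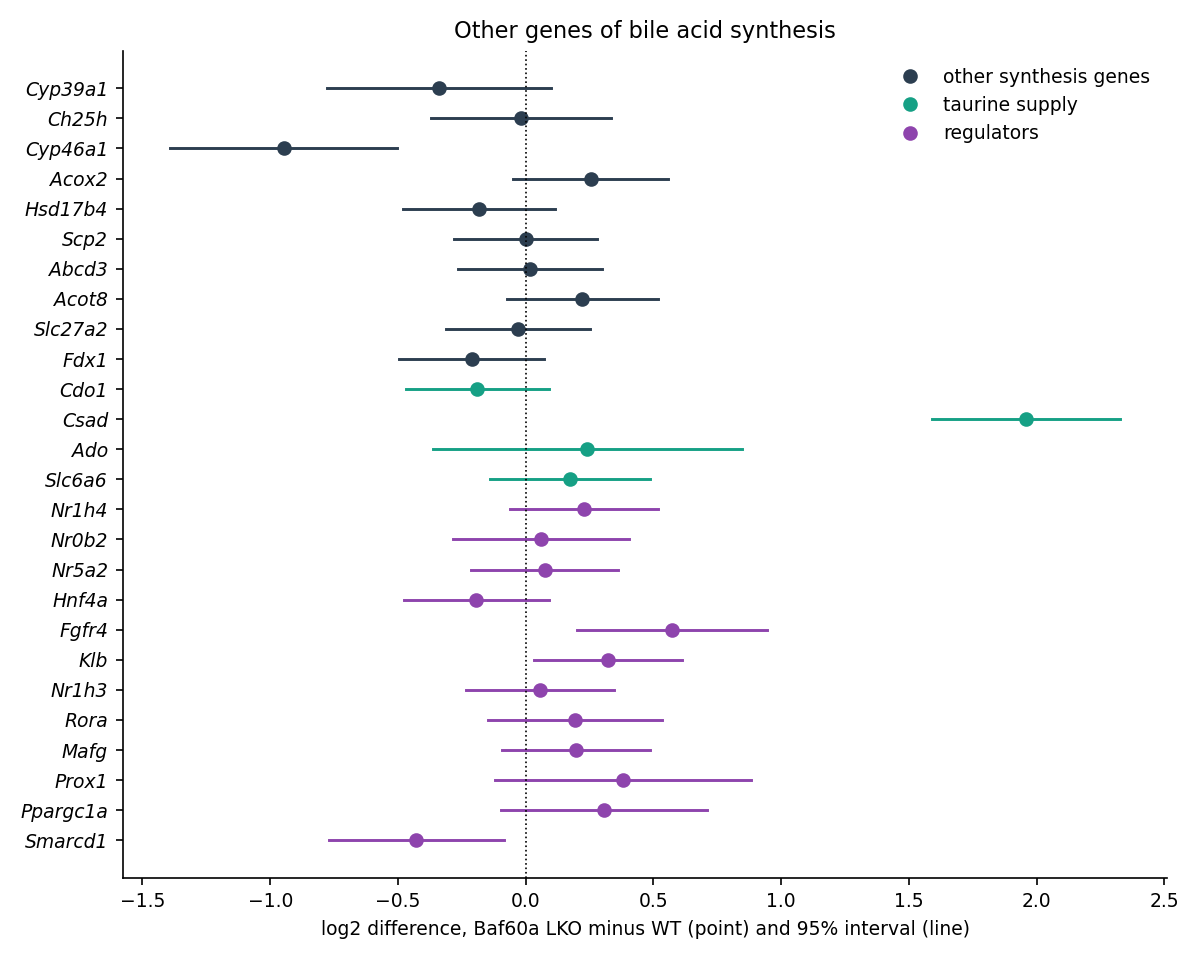
Log2 difference between Baf60a LKO and WT (horizontal axis, points) with its 95% interval (lines, each for 1 gene alone) for the 26 measured genes of the 3 further lists. Csad stands at 1.96, Cyp46a1 at -0.95, and 10 of 12 regulators lie above 0, or 7 after cyclic loess.

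The genes whose 4 values ran most like those of Cyp7b1, by Euclidean distance between profiles after each gene's mean was subtracted, were Mup5 (distance 0.464), Aatk (0.503) and Tff3 (0.624). Mup5, a major urinary protein gene, had 3.70 and 4.15 in Baf60a LKO and 6.74 and 6.19 in WT. Aatk, a kinase gene, had 5.18 and 5.35 in Baf60a LKO and 7.29 and 7.23 in WT, and Tff3, a trefoil factor gene, had 5.81 and 5.95 in Baf60a LKO and 8.51 and 7.03 in WT. For Cyp8b1 they were Mcm5 (0.0635), Pnldc1 (0.0643) and Ces1e (0.0700), with differences of -0.79, -0.81 and -0.82. With 4 arrays in 2 groups, likeness here mostly means a like difference between genotypes.

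**Figure D5:**
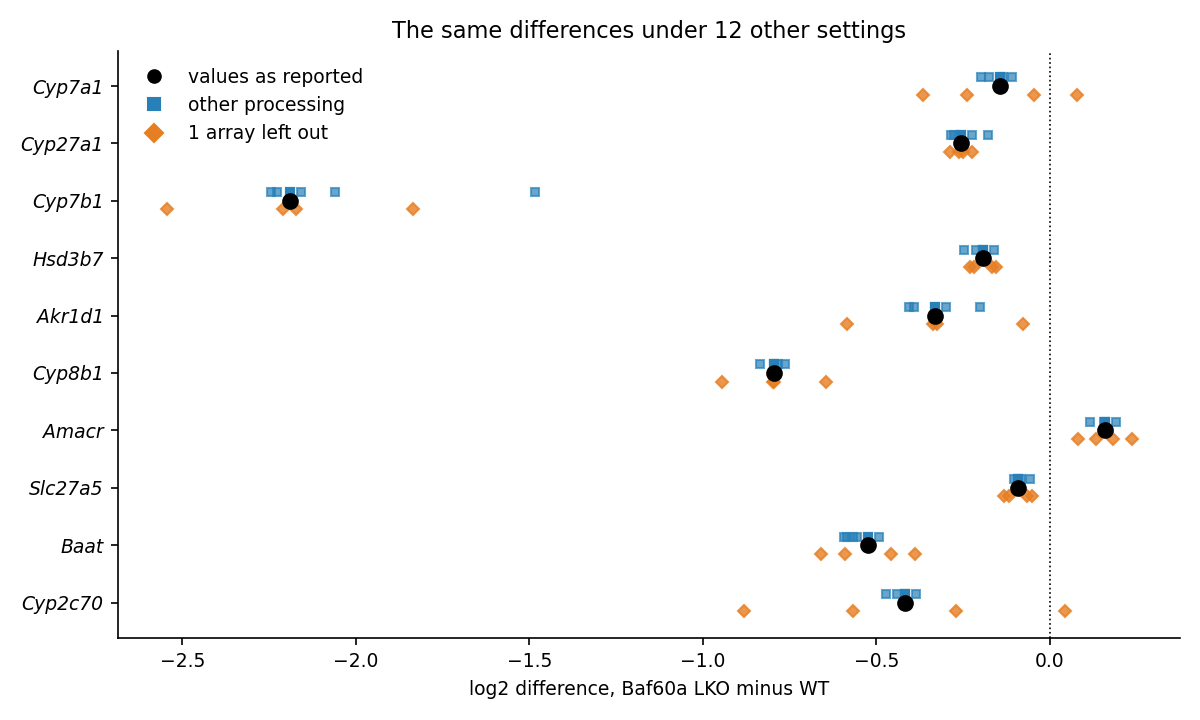
Log2 difference between Baf60a LKO and WT (horizontal axis) for the 10 genes as reported (circles), under 8 other ways of processing (squares) and with 1 array left out (diamonds). Cyp7b1 stays between -2.55 and -1.48, Cyp8b1 between -0.95 and -0.65 and Baat between -0.66 and -0.39, while Cyp7a1 and Cyp2c70 cross 0.

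In the plot of settings, the differences of Cyp7a1 without WT replicate 2 and of Cyp2c70 without WT replicate 1 lie across 0 from the values reported here. The trended and robust eBayes, the replicate block and the brighter 50% of genes change the errors or the adjustment and leave each difference as it was. Over the settings Cyp7b1 ranged from -2.55 to -1.48, Cyp8b1 from -0.95 to -0.65, Baat from -0.66 to -0.39 and Cyp27a1 from -0.29 to -0.18.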

How the data were processed

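Liver RNA pools of 2 Baf60a LKO and 2 WT groups of mice were hybridised to 1 array each, and the labels give each sample its genotype. The deposited data are log2 values, with each probe set read once per array. RMA, affy and limma are named in the submitters' processing notes without versions. RMA (robust multi-array average) removes background, makes the arrays' probe distributions equal and sums up each probe set, and it shrinks differences of dim probe sets. Detection calls were not used here, and the number of arrays limits precision. Background was gauged from 27 control probe sets for Bacillus transcripts.

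Of 45101 probe sets 64 controls were left out. The platform annotation gave 1 symbol to 34945 and several to 932 of the rest and did not list 9160. By Entrez number 34741 were matched to the RefSeq table of GRCm38.p6 and 204 kept their symbol. Each of 18193 genes was represented by its probe set with the highest mean. No genome build is named for the values, so promoters were matched by symbol only.

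Baf60a LKO was tested against WT in R 4.3.3 by limma 3.58.1 (a linear model with moderated variances, 2-sided, 2 residual and 3.54 prior degrees of freedom), over genes and again over all probe sets, without a filter on level and at an adjusted p of 0.05. Errors beside differences are standard errors of these fits, and beside pairs of genes those of a linear model on 4 arrays. Intervals are not adjusted for the number of genes. P-values measure the spread between pools, not between mice. Those of limma, and its errors, also borrow part of that spread from all genes through the prior. The error of Cyp27a1, for example, was 0.11, and 0.060 with the trended and robust prior. Figures used matplotlib 3.10.9 in Python 3.11.15.

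The enzymes and gene lists were chosen with earlier results of these data known. Of each further list, genes past the threshold and up to 4 others with the largest differences are named. Lists are described by counts and medians. Fdxr and Por are not analysed here. On data simulated for Baf60a LKO against WT with 18193 genes, a log2 change of 1 was recovered in 56.7% of 67 genes, of 2 in 92.5% of 67 and of 4 in all of 66, with 7 false calls of 173. The data themselves gave 88 called genes, and more calls make the adjusted threshold easier to pass. The recovered shares therefore check the procedure and do not measure its power for the enzymes. The alternatives were 3 other normalizations, the brighter 50% of genes, averaged probe sets, no _x_at or _s_at probe sets, a replicate block, a variance prior that is trended and robust, and each array left out.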

Additional observations from a re-analysis of the deposited data

How the results depend on the processing

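Of all genes, 45 were called lower and 43 higher, and 84 of all probe sets were called. Cyclic loess gave 70 lower, 72 higher and 162 probe sets, subtracted medians 91 higher and 146 probe sets, renewed quantiles 139 probe sets, and a trended and robust eBayes 98 lower, 118 higher and 173 probe sets. Under these 3 normalizations and over the brighter 50%, 2 enzyme probe sets were called in place of 1, both of Cyp7b1. With the trended prior 3 probe sets and 2 enzymes were called, the addition being Cyp8b1. With averaged probe sets the change of Cyp7b1 relative to Cyp7a1 was -1.35 and to Cyp27a1 -1.30, since the dimmest Cyp7b1 probe set lies at background.

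The labels number replicates 1 and 2 in both groups without saying what a number shares. Same-numbered arrays deviated from their group means with a correlation of 0.14 over genes, with 1 such value to be had from 2 numbers. With a replicate block 14 genes were called lower and 5 higher, 4 probe sets, and 0 of the enzymes or their probe sets (limma, with 3 enzymes and 5 of their probe sets at an unadjusted p under 0.05), at 1 residual degree of freedom.

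Leaving out 1 array (its group then borrows the spread of the other) gave 0 to 14 genes lower, 0 to 3 higher, 0 probe sets and 0 enzymes called (limma, with 669 to 5013 genes, 2 to 4 enzymes and 4 to 6 of their probe sets at an unadjusted p under 0.05), with fewer degrees of freedom. Signs turned for a few values that had not passed. With 1 array left out Cyp7a1 ranged from -0.36 to 0.078, Cyp2c70 from -0.88 to 0.045, Ado from -0.11 to 0.59 and the dimmer Akr1d1 probe set from -0.36 to 0.22, with 0.07 lacking WT replicate 2. The background-level probe sets ranged from -0.41 to 0.011 for Cyp7b1 and from -0.26 to 0.059 for Cyp27a1.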

Other observations

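The WT pools differed from each other at some steps of the pathway. Cyp2c70 was higher by 0.93 on the log2 scale in WT replicate 1 than in WT replicate 2, a gap that 0.852% of all genes reached or passed, and Cyp7b1 was higher there by 0.71, as far as 3.45% of all genes. Cyp7a1 and Cyp8b1 differed the other way, by -0.44 and -0.30, gaps that 15.9% and 31.8% of all genes reached or passed. In Baf60a LKO the gap was widest for Akr1d1, which was lower by 0.51 in replicate 1 (2.04% of all genes reached or passed it), while Cyp7b1 differed by -0.04 between replicates 1 and 2. These gaps rest on 1 pool each and were not tested.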
